A study of Mus musculus with 13 samples.

Results

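Naive-like CD8 T cells of the mouse liver were taken as barcodes with at least 1500 UMIs (unique molecular identifiers, each standing for 1 captured transcript) that held at least 2 UMIs of Cd3e, Cd3g and Cd3d together, at least 2 of Cd8a and Cd8b1 together, at least 1 of Lef1 and none of Ccl5, Cd4 or Trdc. Of 95563 cells in 13 libraries, 995 met this rule, out of 5733 CD8 T cells. The 6 libraries of isolation protocol A held 27 of them, between 2 and 13 each, and the 7 libraries made with protocol B held 968, between 82 and 217 each. Results therefore rest on the protocol B libraries.

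The libraries came from livers of male C57BL/6J mice, 6 to 12 weeks old, fed chow with 0.1% of 3,5-diethoxycarbonyl-1,4-dihydrocollidine (DDC), a xenobiotic that injures the bile ducts. Livers were taken at D0 (steady state), at D3 and D5 of diet (onset), at D9, D19 and D25 (progression), and, in the library named STOP, after 18 days of diet and 7 days of recovery. In protocol A, retinoid-autofluorescent, Epcam+, Pdpn+, Cd45+, Lyve-1+ and Cd31+ Lyve-1- cells and alive singlets were sorted in equal shares, whereas protocol B, also used for STOP, drew on Cd3e+ Lyve-1- cells, which include T cells, on Epcam+ and Cd45+ Itgax+ Cd64- cells and on alive cells of a stellate cell preparation. There was 1 library for each day and protocol, the number of mice behind a library is not given in the sources used here, and the D19 B library carries a D18 label in 1 field, days that the study merged.

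CD8 T cells recognise peptides presented on MHC class I. Before they meet their antigen they are kept quiescent by transcription factors such as Tcf7, Lef1, Foxp1 and Klf2, depend on interleukin 7, and recirculate between blood and lymph nodes through Ccr7 and S1pr1. On activation they replace this programme by cytotoxic granule proteins, chemokines such as Ccl5 and receptors for inflamed tissue, and the liver is known as an organ in which such antigen-experienced CD8 T cells accumulate.

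Sequencing depth ranged from 29307190 to 108602421 UMIs per library. The naive-like CD8 T cells of D0 B were the shallowest, with a median of 2316 UMIs per cell, against 4365 in D5 B to 8369 in D3 B and 4170 in STOP. D0 B also stood apart in RNA content, since mitochondrial transcripts made up 1.53% of the UMIs in its naive-like cells and 2.81 to 5.28% in the other protocol B libraries. No barcode was a naive-like cell in more than 1 library, although 1104 of 94448 cell barcodes occurred in at least 2 libraries. Transcripts of other cells were present in these cells: 346 of 968 held at least 2 UMIs of 13 genes of other lineages or at least 10 of Cd74, and 48 had over 3 times the median UMIs of naive-like cells in their library. Summed dendritic cell markers reached 21374 CPM (a gene's UMIs relative to all UMIs of the summed cells, scaled to a sum of 1000000) in D0 B and 3819 to 9485 in the other 6 libraries, and B cell markers 744 in D0 B against 144 to 221.

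Tcf7 and Dapl1, markers that the rule did not use, were detected in 71.1 to 93.9% and 47.1 to 65.9% of naive-like cells of a library, but in 0.473 to 6.21% and 0 to 3.1% of myeloid cells, which should lack both and had library medians of 5801 to 20151 UMIs per cell. Ccr7 was found in 79.9 to 95.1% of naive-like cells. Gzmk, a granzyme of antigen-experienced CD8 T cells, was found in at most 0.725% and Cxcr6 in none, although Cxcr6 was close to absent from Ccl5-positive CD8 T cells as well, at 0.154 CPM. Nkg7, a granule protein of cytotoxic lymphocytes, was detected in 63.6 to 81.7% of naive-like cells and in 1.89 to 15.9% of myeloid cells of the same libraries. Gzma, another granzyme, was found in 0 to 27.1% of naive-like and 1.89 to 24.3% of myeloid cells by library. Klrd1, a killer cell receptor chain, was found in 40.5 to 79.3% and 15.9 to 48.7%. The naive-like cells therefore carried naive T cell markers almost without granzyme K, but were not free of cytotoxic transcripts.

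Cells on both sides of the rule's limits are given as a description. The 197 naive-like cells with exactly 1 Lef1 UMI had 523 CPM of Tcf7 and 698 of Ccr7, against 551 and 712 in the 771 cells with more. These levels pool the libraries, which were unequally represented: D0 B, with the highest Ccr7 of the 7 libraries, gave 56 of the 197 cells, 65 of the 771 and 73 of the 175 cells without Lef1 and Ccl5 described next. Just outside the rule, the 457 Lef1-positive CD8 T cells with exactly 1 Ccl5 UMI had 540 of Tcf7, 645 of Ccr7 and 0.377 of Gzmk, and the 175 CD8 T cells without Lef1 and Ccl5 had 450, 688 and 1.32. Ccl5-positive CD8 T cells as a whole had 259, 276 and 87.2.

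To describe what the naive-like gate holds besides its defining genes, counts were summed per library and set against CD8 T cells with at least 1 Ccl5 UMI from the same 7 libraries. These comparison cells were not chosen on Lef1: 2445 of 4489 also held a Lef1 UMI, between 28% and 76.6% by library. Most genes tested from the list of naive identity, quiescence and homing were higher in naive-like cells, and most from the effector and cytotoxic list were lower. Levels below are given as CPM and log2 differences with their SE come from edgeR's quasi-likelihood test with the library as a block. Of 7963 genes, 876 were called at an adjusted p of 0.05 (11%), 391 higher (4.91%) and 485 lower (6.09%) in naive-like cells, with a median log2 difference of -0.0088 over all genes. The 9 genes of the rule were left out of the test. Since the naive-like cells were chosen by Ccl5 and Lef1, genes that travel with these 2 differ by the way the cells were chosen, and the values describe the gated cells.

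Of the genes of naive identity, quiescence and homing, 14 of 18 tested were higher and none lower, with a median log2 difference of 0.96. Ccr7, which guides T cells to lymph nodes, lay between 473 and 1138 CPM in naive-like cells (median 677, n = 7 libraries) and between 130 and 442 in Ccl5-positive cells (median 379). The ranges did not overlap and the log2 difference was 1.30 ± 0.24 (adjusted p = 0.00458). S1pr1, the receptor for egress from tissue, lay between 230 and 571 (median 353) against 77.2 and 208 (median 118), again without overlap, and differed by 1.39 ± 0.17. For Tcf7, with 407 to 706 against 123 to 430, the ranges overlapped, D25 B and D0 B of the naive-like cells lying below D5 B of the Ccl5-positive cells, but within each of the 7 libraries naive-like cells were higher (log2 difference 1.08 ± 0.20, adjusted p = 0.00508). Il7r, the receptor chain for interleukin 7, and Klf2, a regulator of quiescence and of S1pr1, were higher by 0.91 ± 0.23 and 1.01 ± 0.12, each in 7 of 7 libraries. The transcription factors Bach2, Satb1, Foxp1 and Foxo1 were higher by between 0.42 and 1.06.

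Among called genes whose mean log2 CPM reached 5, the largest differences upwards were those of Rgcc, a cell cycle regulator, at 1.95 ± 0.19, Dapl1 at 1.71 ± 0.23, Trib2, a pseudokinase, at 1.64 ± 0.14, Tdrp at 1.58 ± 0.20, Igfbp4 at 1.57 ± 0.18, Rflnb at 1.51 ± 0.15, Rab3ip at 1.5 ± 0.13 and Fam241a at 1.44 ± 0.19. Dapl1 lay between 321 and 579 CPM in naive-like cells (median 421) and between 65.8 and 222 in Ccl5-positive cells (median 142). Its log2 difference was past the threshold in all 16 alternatives and ranged from 1.35 to 3.17, the highest value being that against cells with at least 20 Ccl5 UMIs. Fam241a lay between 311 and 400 (median 343) against 76.4 and 207 (median 153). Neither gene overlapped between the 2 kinds of CD8 T cell.

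Effector and cytotoxic genes showed the reverse, with 18 of 21 lower, none higher and a median of -1.59. Gzmk was represented by 2 UMIs in all naive-like cells of the 7 libraries and by 2824 in Ccl5-positive cells, a ratio of 250 (95% counting interval 69.2 to 2066). This ratio pools the 7 libraries and its interval covers counting error only: Gzmk in Ccl5-positive cells lay between 9.32 CPM in D5 B and 214 in STOP (median 41.9). Gzmb lay between 1.17 and 20.1 CPM (median 15.2) against 154 and 1082 (median 430), without overlap (log2 difference -5.04 ± 0.31). Gzma (-4.87 ± 0.56), the inhibitory and activating killer cell receptors Klrc1 (-3.77 ± 0.28) and Klrc2 (-4.67 ± 0.32), the death ligand Fasl (-4.24 ± 0.35), the chemokine Xcl1 (-3.92 ± 0.46), the protease inhibitor Serpina3g (-3.73 ± 0.20) and Ifng (-3.71 ± 0.34) followed. Klrc1 and Klrc2 are near-identical neighbours, and Gzmb belongs to a family of similar genes, so that reads could be split between copies.

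Nkg7 was lower by a smaller margin, at 348 to 547 CPM (median 360) against 641 to 1994 (median 904), a log2 difference of -1.20 ± 0.12 without overlap. Myeloid cells held 2.04 to 35.8 of it. Klrd1, the partner chain of the Klrc receptors, was not called, with 185 to 346 against 248 to 420 (log2 difference -0.23 ± 0.13, adjusted p = 0.266), and its myeloid level, 45.1 to 197, overlapped that of naive-like cells.

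Memory genes were lower in 9 of 13, among them Cxcr3, the receptor for interferon-induced chemokines (-1.98 ± 0.18), Tbx21, which encodes T-bet (-2.57 ± 0.32), Il2rb (-1.52 ± 0.10), Eomes (-1.30 ± 0.27) and Cd44 (-0.87 ± 0.15). Of residency genes, 7 of 10 were lower, such as Itga1 (-2.22 ± 0.29), Rgs1 (-1.52 ± 0.27) and Prdm1 (-1.55 ± 0.37), while Itgae, which encodes the integrin CD103 and is also found on naive CD8 T cells, was higher by 1.14 ± 0.18 in 7 of 7 libraries. The inhibitory receptors Cd160 (-3.02 ± 0.31), Havcr2 and Cd244a were lower among 8 tested. Immediate early and activation genes were lower in 7 of 20, for instance Nr4a1 (-0.52 ± 0.15), and none was higher. Nr4a1 was past the threshold in 8 of 16 alternatives, with values from -1.20 to -0.20.

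Receptor and signalling lists were mixed. Of the genes of cytokine and STAT5 signalling, the interleukin 6 receptor Il6ra (1.02 ± 0.15), Stat5b and Mcl1 were higher and the feedback inhibitors Cish (-1.84 ± 0.34) and Socs2 (-1.28 ± 0.37) and the kinase Pim1 lower, out of 16. Among 11 genes of the TGF-beta pathway, 5 were higher, including the receptor Tgfbr2 (0.39 ± 0.09), the inhibitor Smad7 (0.34 ± 0.09) and the corepressor Ski (0.43 ± 0.11), and 2 lower, the ligand Tgfb1 (-0.37 ± 0.08) and the transducer Smad3 (-0.78 ± 0.22). Of 12 genes of bile acid, sterol and xenobiotic handling, the efflux pumps Abcb1a (-1.57 ± 0.21) and Abcb1b (-0.86 ± 0.22) and the receptor Ahr were lower and the sterol exporter Abcg1 (0.47 ± 0.07) was higher. The T cell receptor list had 4 of 20 higher, with the signalling chain Cd247 (0.71 ± 0.12) and Themis (0.48 ± 0.13), and Fyn lower. None of 13 growth genes passed the test, at a median of 0.03. Several calls of these lists depended on the setting: Smad3 was past the threshold in 5 of 15 alternatives, Socs2 in 6 of 14 (-2.18 to -0.94), Themis in 6 of 16, Abcb1b in 9 of 15, and Smad7 and Tgfbr2 in 9 of 16 each.

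Transcripts of other cells differed too: 5 of 9 dendritic cell markers were lower in naive-like cells, with Cd74 at -0.48 ± 0.14 (past the threshold in 6 of 16 alternatives), and the endothelial genes Kdr (-1.69 ± 0.36) and Ptprb (-1.54 ± 0.34) were lower as well. Without possible doublets the value of Cd74, naive-like CD8 against Ccl5-positive CD8, turned to 0.11. That setting leaves out cells with at least 10 Cd74 UMIs from both populations, so it acts on Cd74 itself and cannot decide this difference. Of 4 markers of NK cells and ILC1, Ncr1 (-2.48 ± 0.43) and Klrb1c (-4.15 ± 0.42) were lower and all 4 were below 0, at a median of -1.54, beside the lower genes of the effector and cytotoxic list. The B cell gene Ighm was higher (0.59 ± 0.10). The part of these transcripts in the result was not tested. Without the library block 179 genes were called, without the D3 B library 490 and without the D9 B library 461, and when only cells without Nkg7 and Cxcr6 UMIs were kept as naive-like, 548. The last setting also dropped D3 B, which had 15 such cells.

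**Figure D1:**
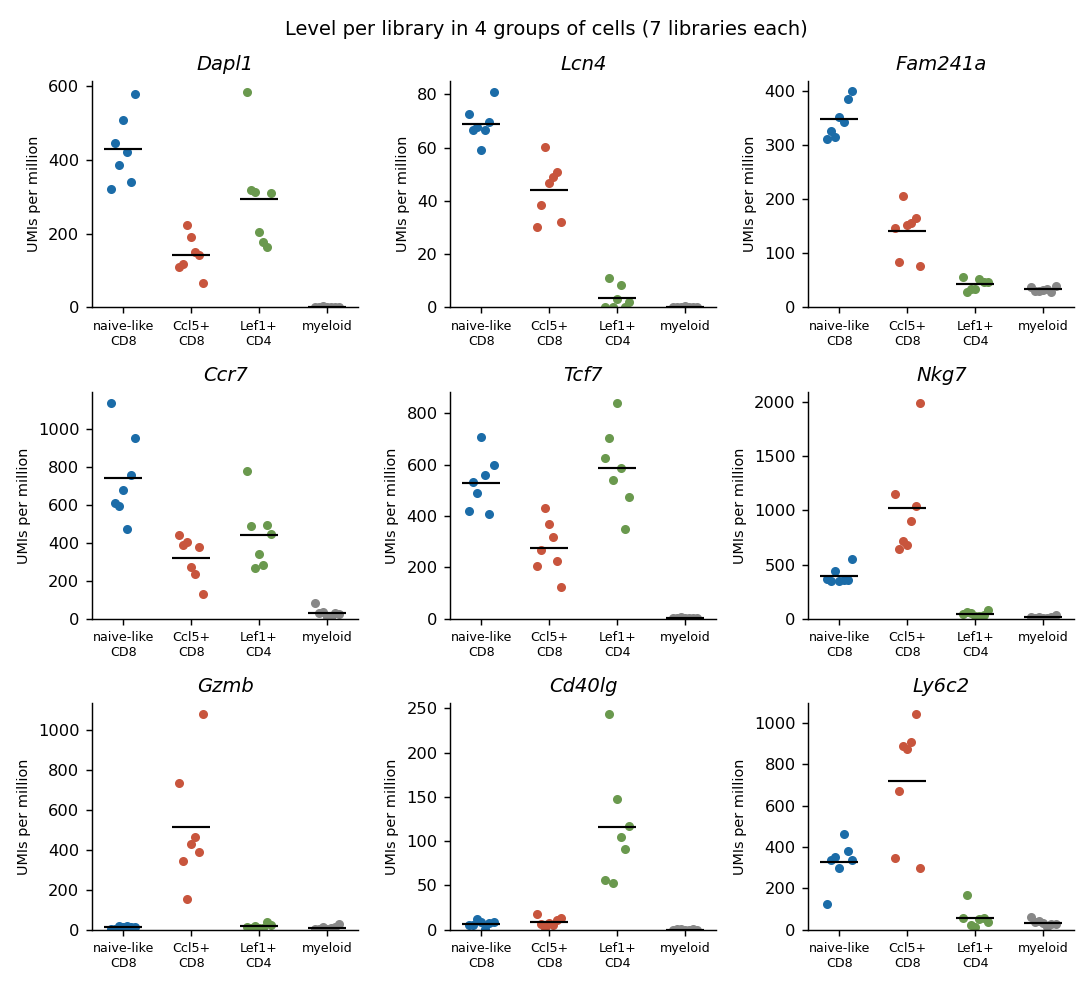
CPM of the summed cells (y axes, linear from 0) of 9 genes in naive-like CD8, Ccl5-positive CD8, Lef1-positive CD4 and myeloid cells, with 1 point for each of 7 libraries and a line at their mean. Lcn4 and Fam241a separate naive-like CD8 from Lef1-positive CD4 T cells in every library, Gzmb separates them from Ccl5-positive CD8 T cells, and Nkg7 lies between both.

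As a population with the same Lef1 criterion, T cells were taken with Cd4 and Lef1, without Cd8a, Cd8b1, Ccl5, Trdc and Foxp3, of which the same 7 libraries held 440. Tcf7 did not differ beyond its spread, and the CD8 T cells stood out by Lcn4, Bend4, Fam241a, Nkg7 and Itgae, the CD4 T cells by Cd40lg and Ly6c1. Of 5722 genes, 376 were called (6.57%), 232 higher (4.05%) and 144 lower (2.52%) in naive-like CD8 T cells, with a median log2 difference of 0.0037 over all genes. Here too the cells were split by measured transcripts, Cd4 and Cd8, and the rule genes and Foxp3 were left out. Tcf7 ranged from 407 to 706 CPM in naive-like CD8 and from 349 to 840 in Lef1-positive CD4 T cells, and its log2 difference was -0.0045 ± 0.10.

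Lcn4, a member of the lipocalin family, had the largest difference upwards among called genes of that level. It lay between 59 and 80.9 CPM in the naive-like CD8 T cells (median 67.8, n = 7), between 30.3 and 60.2 in Ccl5-positive CD8 T cells, between 0 and 11.2 in the CD4 T cells and between 0 and 0.408 in myeloid cells. Naive-like CD8 and CD4 T cells did not overlap, with a log2 difference of 4.05 ± 0.36 (adjusted p = 4.58e-06), and naive-like cells also exceeded Ccl5-positive CD8 T cells in 7 of 7 libraries (0.72 ± 0.16, adjusted p = 0.015). Bend4, a BEN domain gene, lay between 42.6 and 156 against 0 and 16.4 (3.91 ± 0.34). Fam241a lay between 311 and 400 against 29 and 55.6 (3.21 ± 0.13), the CD4 level being close to the 28.1 to 40.6 of myeloid cells.

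Lcn4, with the largest difference upwards from CD4 T cells, and Dapl1, a marker of naive-like against Ccl5-positive CD8 T cells, both lie on chromosome 2, at 26667674 to 26671282 and at 59484653 to 59505020 of GRCm38.p6. Their promoters, from 250 bases before to 50 after the RefSeq start, are shown 5′ to 3′ with the core letters bound by the TCF and LEF factors in capitals, since Lef1 defined the cells. The letters searched on both strands were CTTTG followed by AA, AT, TA or TT, which 16.9% of 32851 RefSeq promoters hold at least once. The Lcn4 promoter held 1 match and the Dapl1 promoter none.
Lcn4 promoter, GRCm38.p6, chr2:26671233-26671532, minus strand: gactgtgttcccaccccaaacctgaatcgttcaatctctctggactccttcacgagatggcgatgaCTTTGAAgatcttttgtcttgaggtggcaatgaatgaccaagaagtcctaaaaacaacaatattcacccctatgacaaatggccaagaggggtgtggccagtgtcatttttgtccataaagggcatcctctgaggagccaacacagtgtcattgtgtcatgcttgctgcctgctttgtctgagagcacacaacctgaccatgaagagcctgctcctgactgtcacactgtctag
Dapl1 promoter, GRCm38.p6, chr2:59484403-59484702, plus strand: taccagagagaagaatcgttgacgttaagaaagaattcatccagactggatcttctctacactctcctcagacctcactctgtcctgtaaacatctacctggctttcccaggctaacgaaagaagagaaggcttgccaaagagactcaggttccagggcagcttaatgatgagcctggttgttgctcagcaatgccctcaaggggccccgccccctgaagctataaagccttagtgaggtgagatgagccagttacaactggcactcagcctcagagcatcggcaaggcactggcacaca

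Of 13 effector and cytotoxic genes, 4 were higher in naive-like CD8 T cells than in CD4 T cells: Nkg7 at 348 to 547 against 24.6 to 75.8 CPM (3.26 ± 0.16), Cst7 (2.23 ± 0.26) and Ctsw (2.16 ± 0.18), which encode an inhibitor of proteases and a protease, and Klrd1 (1.54 ± 0.19). The list as a whole did not lean to 1 side, with 7 genes above 0, 6 below and a median log2 difference of 0.042. S100a4 was lower. Runx3, the transcription factor that specifies the CD8 lineage, lay between 165 and 285 against 69.5 and 149 (1.44 ± 0.14), without overlap. Itgae was higher by 2.44 ± 0.35 and Il2rb, a chain of the interleukin 2 and 15 receptors, by 0.97 ± 0.17. Of 18 naive identity genes, 6 were higher and 2 lower in the CD8 T cells, at a median of 0.11. Ccr7 (0.90 ± 0.10), Dapl1 (0.80 ± 0.18), Txk (0.53 ± 0.09), Bcl2 (0.51 ± 0.10) and Klf2 (0.34 ± 0.08) were among the higher, whereas S1pr1 (-0.34 ± 0.09) and Igfbp4 (-0.83 ± 0.14) were lower. The difference of S1pr1 was past the threshold in 7 of 16 alternatives and ranged from -0.54 to -0.062.

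The surface antigens of the Ly6C family were exchanged between the 2 cell types. Ly6c2 lay between 125 and 461 CPM in naive-like CD8 and between 15.4 and 167 in CD4 T cells (2.84 ± 0.31, higher in 7 of 7 libraries). Ly6c1 lay between 0 and 5.01 against 80.9 and 134 (-5.81 ± 0.35). The 2 genes are near-identical neighbours on chromosome 15, so that the assignment of reads between them is uncertain.

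Genes of the CD4 lineage were lower in naive-like CD8 T cells in 5 of 7. Cd40lg, the ligand by which helper T cells license other cells, lay between 1.25 and 11.6 against 52.9 and 243 (-3.93 ± 0.30), and Izumo1r (-1.75 ± 0.24), Maf (-1.40 ± 0.22), Gata3 (-1.17 ± 0.22) and Icos (-0.99 ± 0.16) followed. Pdlim4 (-3.02 ± 0.34), Myo6 (-2.68 ± 0.27), Trat1, an adaptor of the T cell receptor (-2.32 ± 0.15), Tmem64 (-2.29 ± 0.14), C3 (-2.24 ± 0.49) and Bmp2 (-2.24 ± 0.39) completed the largest differences downwards. Myeloid cells held 90.3 to 261 CPM of C3 and 25.9 to 257 of Bmp2, beside 0 to 482 and 2.23 to 160 in CD4 T cells. The part of other cells' transcripts in these differences was not tested. Cd28 (-0.82 ± 0.12), Cd44 (-1.0 ± 0.20), Itgb1 (-1.48 ± 0.13) and Ctla4 (-1.17 ± 0.23) were lower too. Of 12 growth genes 3 were higher, such as the nucleolar protein Npm1 (0.49 ± 0.07), and of 18 genes of interferon gamma targets and antigen presentation B2m (0.36 ± 0.09), Psme1 (0.38 ± 0.09) and Psme2 were higher and none lower. B2m was past the threshold in 7 of 16 alternatives and its difference ranged from 0.044 to 0.47.

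Endothelial transcripts were part of the CD4 gate: Kdr and Ptprb were lower in naive-like CD8 T cells by 1.81 ± 0.36 and 1.60 ± 0.30 on the log2 scale, and when cells with a UMI of 7 endothelial genes were left out of both populations, 150 genes were called, 86 higher and 64 lower. Without the library block 63 were called, when both populations were selected on thinned counts 198, and without Nkg7-positive cells in both populations 150. These 2 selections also dropped libraries with under 20 cells, D0 B and D3 B for thinned counts and D3 B without Nkg7-positive cells.

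**Figure D2:**
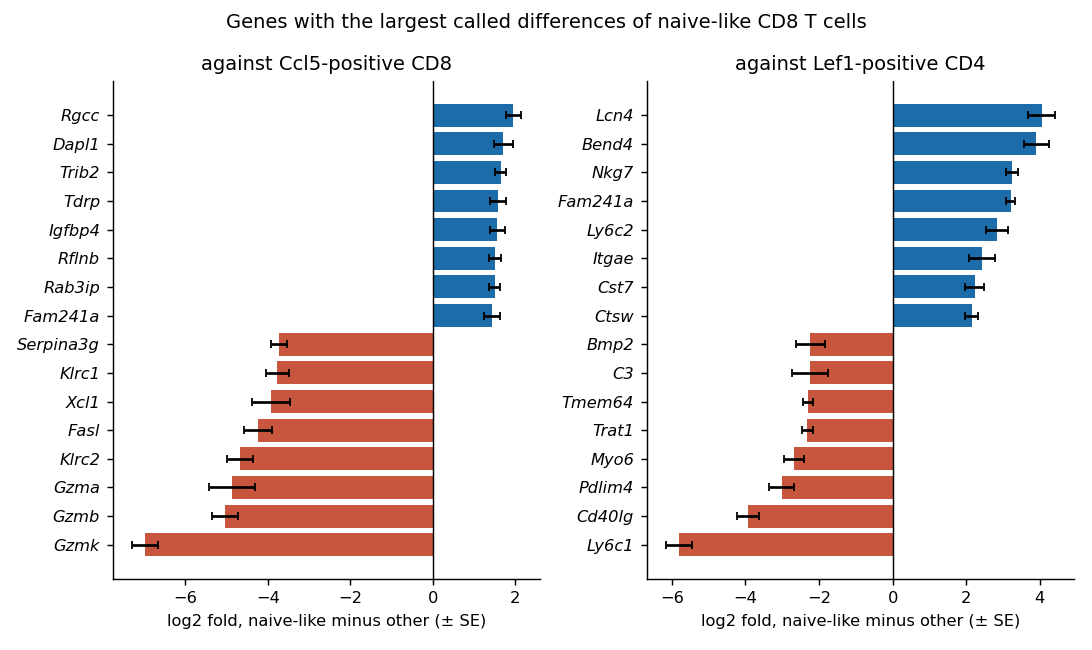
Log2 fold of naive-like CD8 T cells over Ccl5-positive CD8 T cells (left) and over Lef1-positive CD4 T cells (right), with SE, for the called genes with the largest differences (7 libraries, library as a block). Gzmk rests on 2 UMIs in naive-like cells, and in the comparison with CD4 T cells Lcn4 has the largest fold upwards, at 4.05, and Ly6c1 the largest downwards, at -5.81.

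To ask how naive-like CD8 T cells varied over the course of DDC diet, onset (D3 B, D5 B) and progression (D9 B, D19 B, D25 B) were compared with steady state, for which D0 B was the only library with at least 20 naive-like cells. Steady state therefore added nothing to the spread in this fit, which came from differences among diet libraries of different days. Tcf7 and Dapl1 did not pass the test at any stage, and Klf2 was lower in the progression libraries than in D0 B, a difference from 1 library, while Klf2 was not high in the few cells of D0 A, also from steady state but of protocol A. D0 B values of Klf2, Jund and Ubb stood apart in other cells of that library as well. Of 8590 genes, 3 were called lower and none higher at progression (0.0349%), Klf2, Hist1h2ap and Retnlg. None was called at onset against steady state or at progression against onset (0% each) by edgeR, where 1294 and 323 genes had an unadjusted p under 0.05. By DESeq2, 86 genes (1%) were called at onset against steady state, 32 higher (0.373%) and 54 lower (0.629%), and 1 (0.0116%) at progression against onset. At progression against steady state 255 (2.97%) were called by DESeq2, 72 higher (0.838%) and 183 lower (2.13%), and 1706 had an unadjusted p under 0.05 by edgeR. Median log2 differences over all genes were 0.10 for onset and 0.15 for progression against steady state and 0.016 for progression against onset.

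Klf2, at 4755 CPM in D0 B, was at 1256 and 1277 in D3 B and D5 B, at 1309, 1211 and 1365 in D9 B, D19 B and D25 B, and at 1704 in STOP. D0 B alone was high and the other libraries lay close together (log2 difference of progression over steady state -2.16 ± 0.24, adjusted p = 0.0388). The 13 naive-like cells of D0 A, also from steady state but of protocol A, had 993 (95% Poisson interval 744 to 1299), an interval that reaches the lower diet libraries and lies below D0 B. Hist1h2ap, a histone gene with near-identical copies, stood at 293 in D0 B and between 3.31 and 13.8 in the other libraries (-5.39 ± 0.48, adjusted p = 0.0254). High levels were not confined to naive-like cells. Over the same libraries it reached 309 in Ccl5-positive CD8 T cells (median 14.7) and 145 in myeloid cells (median 17.9). Retnlg, a neutrophil gene, stood at 196 in D0 B and at 0 in all other protocol B libraries, while the myeloid cells of D0 B held 123 of it. The calls depended on single libraries: without D3 B or D5 B no gene was called, with an adjusted p of 0.0796 or 0.0892 for Klf2, and without D19 B Klf2 had 0.236. With 1 library left out, the log2 difference lay between -2.09 and -2.22 for Klf2 and between -5.10 and -6.05 for Hist1h2ap. Other settings moved these values further. With D0 A added and no protocol term, the value of Klf2, progression against steady state, was -1.37 (edgeR adjusted p = 0.579) and that of Hist1h2ap, progression against steady state, -4.67 (edgeR adjusted p = 0.543). Over all 17 alternatives Klf2 ranged from -2.35 to -0.36 and Hist1h2ap from -6.87 to -1.28, and the values nearest 0 were those of time as a linear term, a slope per time point and not a difference between stages.

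Ubb, a polyubiquitin gene, Jund, a member of the AP-1 family, and Eif1, an initiation factor, had the same course without passing the threshold (adjusted p = 0.056, 0.0601 and 0.0601 at progression). Jund stood at 4154 CPM in D0 B, 864 and 1276 at onset and 893, 796 and 1168 at progression. Ubb stood at 3291 in D0 B, 638 and 611 at onset and 653, 417 and 744 at progression. In D0 A these 2 genes stood at 1105 and 244.

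Satb1, a chromatin organiser of T cells, ran the other way, from 153 in D0 B to 624 and 626 at onset and 791, 797 and 589 at progression (1.95 ± 0.34, adjusted p = 0.0725). Its level in the 13 cells of D0 A was 2173 (interval 1796 to 2606), above every diet library. With D0 A added, no gene was called and the Satb1 difference turned to -0.52 at onset and -0.38 at progression. That fit had no protocol term, and D0 A was its only protocol A library. A difference between D0 A and D0 B therefore cannot be told apart from one between protocols. Cmip and Tnik were represented by 1 UMI each in D0 B and Lpp by 3, against 59 to 128 CPM at progression, ratios of 27.2 (counting interval 4.84 to 1081), 40.1 (7.15 to 1589) and 9.49 (3.21 to 46.4). Over the alternatives, the slope of linear time included, their log2 values at progression ranged from 0.18 to 8.74, from 0.30 to 5.18 and from 0.24 to 3.73. Nabp1, a single-strand DNA binding protein, had a log2 difference of 2.86 ± 0.44 (adjusted p = 0.0658).

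Klf2, Jund and Satb1 in D0 B stood apart in other cells of that library as well. In Ccl5-positive CD8 T cells Klf2 stood at 2278 in D0 B and at 596 to 1008 in the diet libraries, and in myeloid cells at 785 and 220 to 266. Jund was at 3341 against 849 to 1198 in Ccl5-positive cells and at 2054 against 810 to 1071 in myeloid cells, and Satb1 at 121 against 311 to 610 in Ccl5-positive cells. In a test of the difference of differences, chosen after seeing the data, which had 4 residual degrees of freedom, none of 7952 genes was called by edgeR for a change from D0 B to the 5 diet libraries that differed between naive-like and Ccl5-positive CD8 T cells (0%; 493 at an unadjusted p under 0.05), which does not show that the changes were alike. The difference was -0.31 ± 0.25 for Klf2 (95% interval -1.0 to 0.38), -0.38 ± 0.15 for Jund (-0.80 to 0.03) and 0.12 ± 0.35 for Satb1 (-0.85 to 1.09). For Hist1h2ap it was -1.05 ± 0.51 (-2.47 to 0.37). These intervals rest on the 4 residual degrees of freedom alone, fewer than the test uses, and are wider than the test implies. Jund and Eif1 (-0.83 to 0.03) were among the genes past the unadjusted threshold of the test, although their intervals include 0. Among the genes named for the stage comparisons, intervals that did not include 0 were those of Cmip, with 2.23 to 5.93, Tnik, with 1.54 to 5.86, and Cd209a, with -3.48 to -0.33, although none passed the adjustment (edgeR adjusted p = 0.317, 0.785 and 0.785), and Cmip and Tnik rest on 1 UMI each in D0 B. With 1 steady-state library, the diet and that library cannot be told apart. Genes higher at progression than in D0 B with an unadjusted p under 0.05 spanned a median of 46.3 kb of the genome (RefSeq), those lower 8.69 kb and all tested genes 23.7 kb, and the part of this in the result was not tested.

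**Figure D3:**
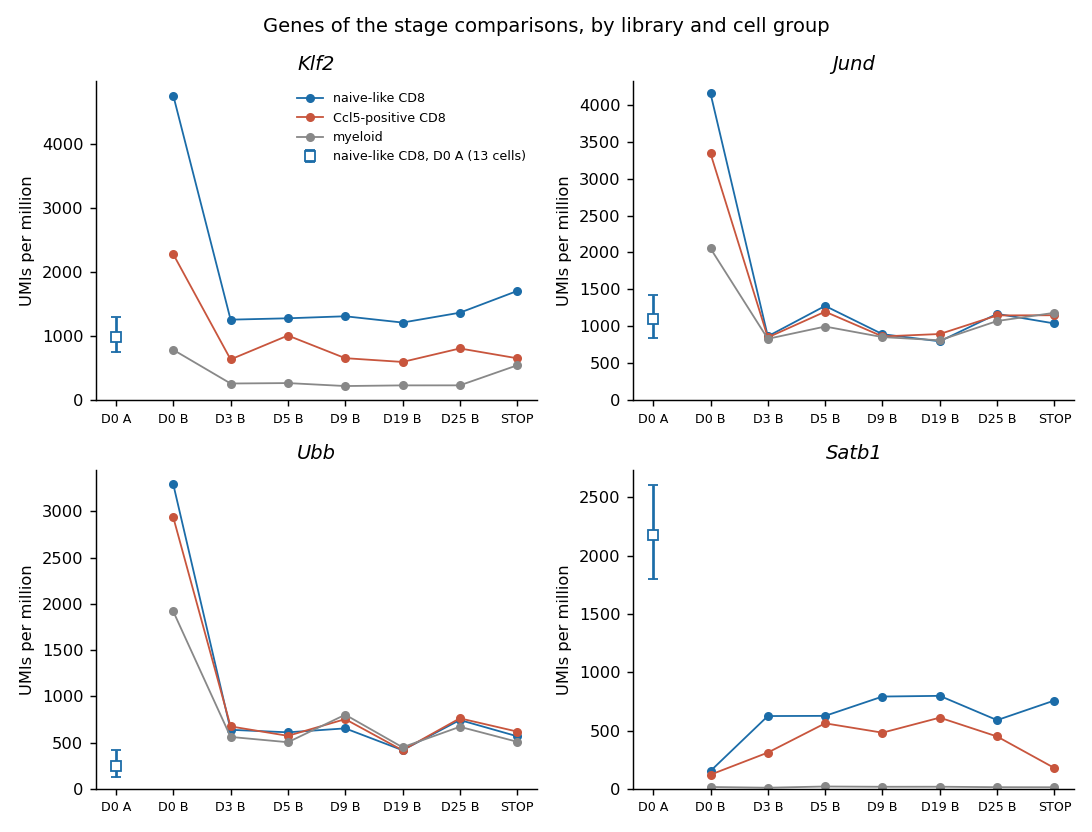
CPM (y axes, linear from 0) of Klf2, Jund, Ubb and Satb1 by library in naive-like CD8, Ccl5-positive CD8 and myeloid cells, with naive-like cells of D0 A as an open square and its 95% Poisson interval. D0 B is high for the first 3 genes in all 3 populations, while D0 A, of protocol A, is not.

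Markers of naive T cells were tested in the same fit. Tcf7 stood at 419 in D0 B, 534 and 490 at onset, 706, 559 and 407 at progression and 597 in STOP, and Dapl1 at 321, then 444 and 386, then 506, 421 and 340, and 579. Their log2 differences from steady state were 0.07 ± 0.36 and 0.15 ± 0.33 at onset and 0.12 ± 0.34 and 0.11 ± 0.32 at progression, so that D0 B lay within the spread of the other libraries for Tcf7 and below it for Dapl1. Ccr7 was highest in D0 B, at 1138 against 473 to 758 in the diet libraries (-1.12 ± 0.31 at progression, adjusted p = 0.128). Foxp1 differed by 0.93 ± 0.33 and Il7r by 0.61 ± 0.44 (adjusted p = 0.185 and 0.45). Of 18 naive identity genes, Klf2 alone was called, and the summed level of the list lay between 8917 and 12187 CPM in all 7 libraries.

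In the edgeR fit, no list gene other than Klf2 and Retnlg passed the test at any stage. Jund and Cd74 passed at progression in 9 and 8 of 17 alternatives, some of which only repeat the main fit. Summed immediate early genes stood at 15539 CPM in D0 B and at 7026 to 10812 in the diet libraries, and in myeloid cells at 14608 against 11311 to 12062. Summed cell cycle genes stood at 2507 in D0 B, 1328 and 1165 at onset and 1152 to 2133 at progression. Cytotoxic genes lay between 1651 and 3171 in the diet libraries and at 2324 in D0 B.

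Type I interferon-stimulated genes were highest in D3 B. Their sum stood at 1847 CPM in D0 B, 3059 in D3 B, 1691 in D5 B, 1579, 1490 and 1392 at progression and 2241 in STOP. From onset to progression 24 of 26 had a log2 difference below 0, with a median of -0.69, and none was called. Ifi27l2a, a small interferon-induced protein, stood at 898 in D3 B, 407 in D5 B and 183 to 292 at progression (-1.55 ± 0.36, adjusted p = 0.9997). The same library was the highest in Ccl5-positive CD8 T cells, with a summed level of 2606 against 1539 to 2430 in the others, and in myeloid cells, with 3349 against 1581 to 2894. The other genes with the smallest p between progression and onset were Vmn2r97, Hipk2, Hdgfl3 and Sntb2 upwards, by 0.98 to 1.52, and Cd209a, a dendritic cell lectin, Ptafr, Ehd4 and Ms4a4c downwards, by -1.39 to -2.15, none with an adjusted p under 0.9997.

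Since more UMIs per cell make a Lef1 UMI likelier and the absence of Ccl5 less likely, each cell was thinned to 1500 UMIs before the naive-like share of CD8 T cells was taken. It was 22.9% in D0 B (61 of 266 cells, 95% Clopper-Pearson interval 18 to 28.5%), 34.0% in D3 B (36 of 106, 25.0 to 43.8%), 17.4% in D5 B (71 of 407, 13.9 to 21.5%), 30.3% in D9 B (90 of 297, 25.1 to 35.9%), 13.4% in D19 B (62 of 461, 10.5 to 16.9%), 17.3% in D25 B (78 of 452, 13.9 to 21.1%) and 10% in STOP (85 of 846, 8.1 to 12.3%). The diet libraries lay on both sides of D0 B, with a mean of 22.5% ± 9.04 (SD, n = 5), and the difference of -0.449 percentage points was within their spread (exact two-sided permutation test, p = 1, with 0.167 as the smallest p that 6 libraries allow). Unthinned shares of the protocol B libraries ran from 9.57% in STOP to 37.3% in D3 B, and without thinning 3 protocol A libraries also reached 20 CD8 T cells, with 52% in D0 A (13 of 25 cells, interval 31.3 to 72.2%), 14.3% in D19 A (3 of 21) and 2 of 20 cells in D25 A. Over these 9 libraries the unthinned difference within protocol was -22.9 points (exact permutation test, p = 0.167, with 0.0556 as the smallest possible), so that its size depended on the scale and on D0 A.

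Ccl5 UMIs were found in 5.11 to 22.1% of thinned myeloid cells of these libraries, lowest in D3 B and highest in D5 B, and the part of free Ccl5 RNA in the share was not tested. With up to 2 Ccl5 UMIs allowed, the difference was 4.08 points (exact permutation test, p = 0.833). Sorting at equal ratios sets how many T cells a library holds, and a lower share cannot be told apart from more Ccl5-positive cells.

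**Figure D4:**
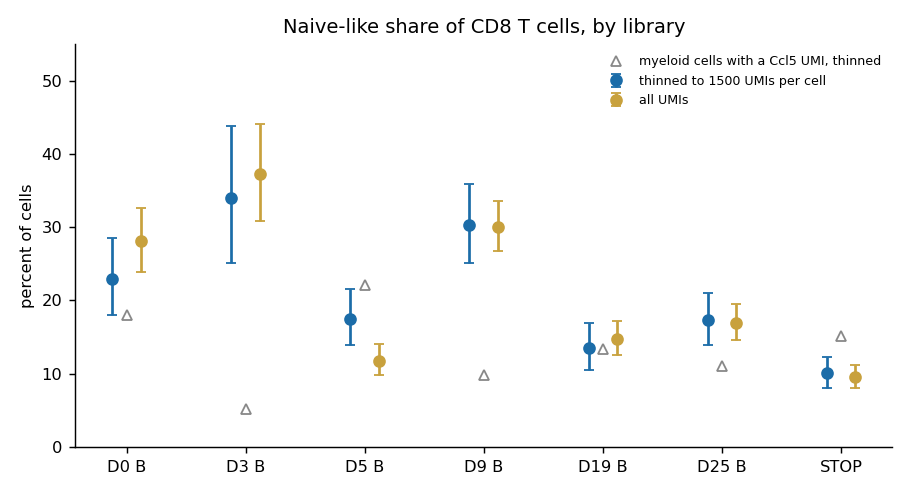
Naive-like share of CD8 T cells in percent (y axis) for 7 libraries, from cells thinned to 1500 UMIs and from all UMIs, with 95% Clopper-Pearson intervals that cover counting error only, and, as triangles, the percent of thinned myeloid cells with a Ccl5 UMI. D3 B and D9 B are highest and STOP lowest, and the diet libraries lie on both sides of D0 B.

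The STOP library was compared with D19 B, both of protocol B and with 1 library each, so that no test was made and intervals cover counting error only. Part of the genes of interferon gamma targets and MHC class I presentation were higher in the naive-like cells of STOP. Among 3236 genes that reached 50 CPM in STOP or D19 B, 624 (19.3%) had separate 95% Poisson intervals, 379 higher (11.7%) and 245 lower (7.57%) in STOP. Intervals separate more easily at higher levels, and of genes that reached 200 CPM 32.8% were higher and 14.7% lower. Of 14 genes of interferon gamma targets and MHC class I presentation, 8 were higher with separate intervals and none lower, with a median log2 ratio of 0.62. H2-K1, a class I heavy chain, stood at 2342 against 1335 CPM, B2m, its light chain, at 608 (549 to 670) against 306 (269 to 347), and the immunoproteasome subunit Psmb8 at 166 (137 to 201) against 72.7 (55.2 to 94.0). Of 10 type I interferon-stimulated genes, 4 were higher and none lower, with Ifi27l2a at 470 (419 to 526) against 183 (155 to 215). Beside the 32.8% of genes higher from 200 CPM upwards, this count gives no result about the type I interferon list. Of 10 heat shock genes, 5 were higher and none lower, and the mitochondrial share of UMIs in naive-like cells was 2.89% in STOP and 5.28% in D19 B, the highest of the 7 libraries, and its part in the result was not tested. Summed levels of the antigen presentation list were higher in STOP than in D19 B in Ccl5-positive CD8 T cells (8804 against 5576) and myeloid cells (6557 against 4001) too, beside 7145 against 4487 in naive-like cells.

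Ccr7 stood at 953 (879 to 1030) in STOP against 473 (426 to 523), Cd28, the costimulatory receptor, at 249 (212 to 290) against 115 (93.0 to 141), Dapl1 at 579 (522 to 640) against 421 (377 to 469), and Nkg7 at 547 (491 to 606) against 357 (317 to 401). Tcf7 overlapped, at 597 (539 to 659) against 559 (508 to 613). Of 18 naive identity genes that reached 50 CPM, 6 were higher and 2 lower. Of all genes that reached 200 CPM, 32.8% were higher and 14.7% lower, so that these counts give no result about the list.

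Many of the largest ratios belonged to genes of hepatocytes and myeloid cells. Among 720 genes that reached 200 CPM in STOP or D19 B, 342 (47.5%) had separate intervals, 236 higher (32.8%) and 106 lower (14.7%). Leaving out mitochondrial, ribosomal and predicted genes, the hepatocyte genes Mup20 (231 against 0, at least 61.3-fold higher with 3 UMIs in D19 B taken as the floor) and Fabp1 (286 against 3.76) led upwards, followed by Cst3 (2301 against 630), Hspa1b, a heat shock protein (240 against 68.9), Ppp1ca and Ndufa13. Downwards, the myeloid genes S100a8 (6.11 against 322), Marco (0 against 222, at least 48.4-fold lower), Cd5l (18.3 against 217), Il1b (77.9 against 379) and C1qc (67.2 against 316) and the mitochondrial tRNA synthetase Lars2 (51.9 against 637) led. Summed hepatocyte markers stood at 565 in STOP and 58.9 in D19 B, and summed myeloid markers at 1090 and 2623.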

How the data were processed

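Single-cell RNA-seq (10x Chromium 3′) was done on mouse liver. The deposited matrices hold UMI counts of gene symbols by barcode, not normalized and with barcodes of few UMIs included. The submitters' processing notes name kallisto (version not given in the sources used here) and GRCm38. Cells needed 1500 UMIs. Naive-like CD8 T cells, comparison cells and gene lists were chosen with earlier results of these data known. Myeloid cells held at least 10 UMIs of Lyz2, C1qa and C1qb together and none of Cd3e, Cd3g and Cd3d, which can lower the level of T cell transcripts in them.

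Counts were summed per library over at least 20 cells and tested with edgeR 4.0.16 (quasi-likelihood, TMM, filterByExpr, Benjamini-Hochberg at 0.05) in R 4.3.3. DESeq2 1.42.0, no low-count filter, deeper or thinned cells, possible doublets left out, leaving out libraries and other gates were the alternatives. A protocol term had been planned, but protocol A libraries held too few cells. The stage fit had 3 residual degrees of freedom. The tests were tried on simulated data without library effects and with a smaller spread than that of the stage fit, which cannot vouch for the stage tests. Levels are CPM, relative to all UMIs of the summed cells, and folds come from the fits. Doublets were kept. Replicates are libraries. In the stage fit and the share test, p-values rest on the spread between libraries. In the pair comparisons and the difference of differences the library was a block. Their p-values rest on how far the difference between cell kinds within a library varied over libraries. Mice were killed before organs were taken, so protocol B libraries of different days cannot share an animal, but the mice behind each library are not counted. In the stage fit steady state was a single library and added nothing to the spread. That spread came from D3 B against D5 B and from D9 B, D19 B and D25 B, which were different days of diet.

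Named genes were the 8 with the largest called difference in each direction from a mean log2 CPM of 5 upwards, without rule, mitochondrial, ribosomal and predicted genes; with fewer than 4 called, the 4 with the smallest p; list genes and markers; and for recovery the 6 largest ratios from 200 CPM. Promoters are RefSeq's, GRCm38.p6. Whether counting used strand is not given in the sources used here. A gene of the naive identity list is not reported here.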

Additional observations from a re-analysis of the deposited data

How the results depend on the processing

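The stage results rest on D0 B as the only steady-state library, with 121 shallow cells. The stage setting without Nkg7-positive cells also dropped D3 B, where 15 cells were left. Onset was then D5 B alone. No paired analysis was possible for the stages because steady state had 1 usable library. In the pair comparisons the library was the block.

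For onset against steady state, 86 genes were called with DESeq2, 323 with no filter on low counts, 1 with at least 3000 UMIs per cell, 50 with thinned counts, 1 without Nkg7-positive cells, 75 without possible doublets, and 0 to 29 with 1 library left out (29 without D25 B). For progression against steady state these counts were 255, 725, 48, 203, 18 and 339, with 28 for time as a linear term, 61 with up to 2 Ccl5 UMIs, 0 with D0 A added, and 0 to 488 with 1 library left out (0 without D3 B or D5 B, 88 without D9 B, 488 without D25 B). Over 17 alternatives the adjusted p of Klf2 at progression ranged from 2.14e-14 to 0.579 and was past the threshold in 11. The count of 11 includes the settings that only repeat the main fit. For progression against onset, 1 was called with DESeq2, 106 with no filter, 6 thinned, 2 without Nkg7-positive cells, and 0 to 1 with 1 library left out.

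For naive-like CD8 against Ccl5-positive CD8, 1460 genes were called with no filter, 548 without Nkg7-positive cells, 179 with no replicate block, 1391 against cells with at least 20 Ccl5 UMIs, and 461 to 838 with 1 library left out. For naive-like CD8 against Lef1-positive CD4, 741 were called with no filter, 198 thinned, 150 without Nkg7-positive cells, 63 with no replicate block, 150 without endothelial UMIs, and 266 to 431 with 1 library left out. Of 62 genes named in the first, 33 passed under every alternative run, and of 44 in the second, 19. The difference of differences gave 26 with no filter, 1 at 3000 UMIs, 3 without possible doublets and 0 to 6 with 1 library left out. The share difference turned to 8.67 points at 3000 UMIs, 1.89 of all T cells, 1.98 without Nkg7-positive cells and 4.08 with up to 2 Ccl5 UMIs, was -22.9 points over 9 libraries with no thinning (exact permutation test, p = 0.167), and ranged from -3.32 to 1.81 with 1 library left out. The settings with D0 A added (no protocol term), with up to 2 or at least 20 Ccl5 UMIs and without endothelial UMIs were chosen after seeing the data. The cause was not tested for any of these.

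Signs turned for Satb1 with D0 A added (-0.52 for Satb1, onset against steady state, -0.38 for Satb1, progression against steady state) and for Cd74, naive-like CD8 against Ccl5-positive CD8, without possible doublets (0.11), a setting that leaves out cells by their Cd74 UMIs. The rest lay near 0. Tcf7, onset against steady state, was -0.024 without possible doublets and -0.0037 to 0.15 with 1 library left out. Tcf7, progression against steady state, was -0.095 thinned, -0.11 without possible doublets, -0.028 with linear time and -0.071 to 0.29 with 1 library left out. Tcf7, progression against onset, was -0.28 thinned, -0.090 without possible doublets and -0.14 to 0.22 with 1 library left out. Tcf7, naive-like CD8 against Lef1-positive CD4, was 0.093 with no filter, 0.075 at 3000 UMIs, 0.13 without Nkg7-positive cells and -0.081 to 0.049 with 1 library left out. Dapl1, progression against steady state, was -0.17 without possible doublets, -0.031 with linear time and -0.030 to 0.22 with 1 library left out, and Dapl1, progression against onset, -0.18 to 0.075 with 1 library left out.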
